A study of Mus musculus with 6 samples.

Results

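The omental macrophage libraries taken 24 h and 7 d after the injection of ID8 cells were compared with each other, to describe which transcripts of the acute response had receded by 7 d, which were still high and which became high only then. Members were the genes with an FPKM (fragments per kilobase of transcript per 1000000 fragments mapped) of at least 10 in either library, and 7049 of the 23946 genes in the table met this rule. Of these, 7040 were above 0 in both libraries, and 9 were listed at 0 in one of them and received no fold change. These 9 were Ccl1 and 8 short RNA genes. Cd74 was left out, because it was listed at 0 in OM24h and at 15010.0 in OM7d, a level at which 0 may be a failed estimate. The rule left Ulk2 just inside at 10.01 and Mir22hg just outside at 9.999, both in OM24h.

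The mice were female C57BL/6 animals of 6 to 8 weeks, and ID8, a mouse ovarian carcinoma line of the same background, was injected into the peritoneal cavity. Macrophages were sorted as CD45+CD11b+F4/80+ cells from dissociated omentum (OM) or mesenteric adipose tissue (MY), naive (0 h) or 24 h or 7 d after the injection. Each of the 6 conditions had 1 library, made from a pool of 3 omenta in the omental conditions. There was thus no spread between replicates, no test was made, and every difference given is one between single libraries.

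The omentum is a fatty apron of the peritoneum whose milky spots, clusters of immune cells under the mesothelium, take up cells and particles from the peritoneal fluid. Its resident macrophages carry scavenger receptors and complement genes, and after an insult neutrophils and blood monocytes enter the tissue and acquire macrophage genes of their own. Resolution of such a response is marked by loss of the inflammatory cells, by clearance of debris and by synthesis of matrix by fibroblasts and mesothelial cells.

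Below, levels are FPKM and are given in the order OM0h, OM24h, OM7d unless stated. Differences are of log2(FPKM + 1), so that those of weakly expressed genes come out too small, and a gene was called higher or lower when it passed 2-fold on that scale. The FPKM summed to 713863 in OM24h and to 560290 in OM7d. Low FPKM values pointed to a depth in OM7d about 1.49 times that of OM24h, with 40 of 429 low genes at the commonest ratio, so values near 0 rested on fewer reads in OM24h. FPKM gives no read counts, and no counting interval can be attached to these levels.

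The markers of the sort were present in all 3 omental libraries. Ptprc, which encodes CD45, was at 182, 106 and 124. Itgam, which encodes CD11b, was at 91.2, 151 and 58.7, and Emr1, which encodes F4/80, was at 27.4, 135 and 26.5. Emr1 and Itgam were thus highest at 24 h, while Ptprc was highest in the naive library. Markers of other cell types were present as well. The summed FPKM of 18 B cell genes was 6652 in OM0h, 1527 in OM24h and 3934 in OM7d, and that of 21 T cell genes was 587, 101 and 468. The 21 NK and cytotoxic cell genes summed to 705, 51.1 and 456, with Klra4, Klra9 and Gzmc listed at 0 in OM24h. The 24 measured neutrophil genes summed to 8256, 19009.9 and 21217, and the 15 core macrophage genes to 10064.5, 32466 and 9842. The 18 fibroblast genes summed to 1756, 896 and 2394, and the 25 mesothelial and epithelial genes to 706, 1661 and 2016. The libraries thus differed in the mixture of transcripts they held. In bulk samples fewer cells of a type and less RNA per cell cannot be told apart, and the part of this mixture in the results below was not tested.

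**Figure D1:**
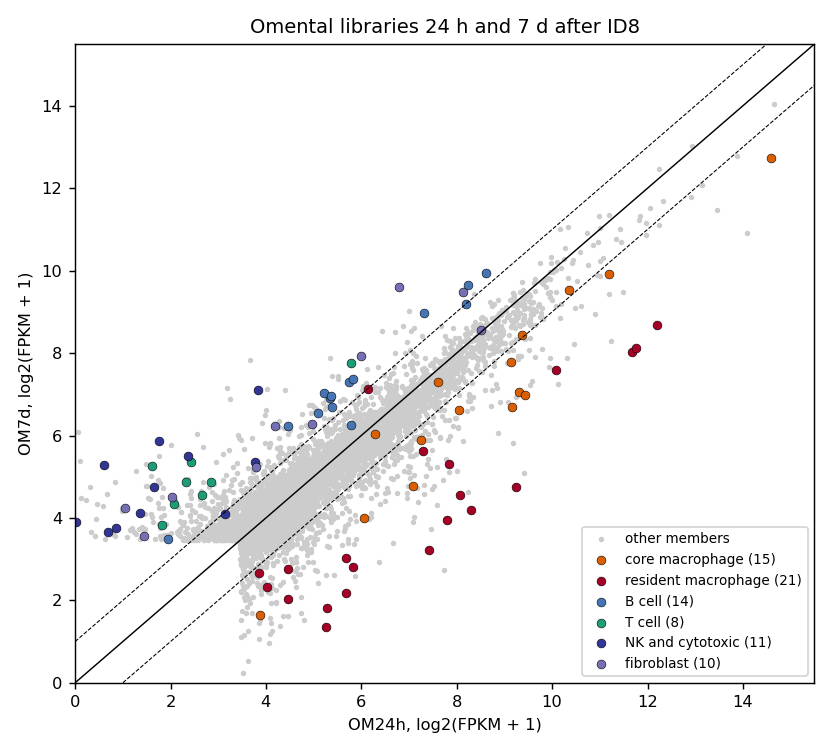
Levels of the 7040 members in OM24h (x axis) and OM7d (y axis), both as log2(FPKM + 1), 1 point per gene and 1 library per axis, with the solid line at equality and the dashed lines at 2-fold. Genes of 6 cell type lists are coloured, with the number of members in brackets: the macrophage genes lie below the line of equality except Gas6 of the resident list, and the B, T and NK cell genes lie above it.

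Of the 7040 members, 360 (5.11%) were at least 2-fold higher and 442 (6.28%) at least 2-fold lower in OM7d than in OM24h, and the median difference was -0.06. This balance depended on the scaling. With each library rescaled to the same sum of 1000000, the median difference was 0.28 and the split became 654 higher and 274 lower, so that the higher genes made up 70.5% in place of 44.9% of the 2-fold differences. Rescaling by the median ratio gave 366 higher and 437 lower. Values below are as deposited. The rescaling to 1 sum adds to every difference, so list counts shifted towards higher, and those that shifted by 2 or more calls in a direction, or a direction that turned, are given with each list. The filter also enters the counts: a gene below 10 in one library is a member only because it is high in the other, which largely fixes its direction. For some lists with such genes, the members that reached 10 in both libraries, or in 1 alone, are given. Where they are not given, the filter may have set some of the calls as well. List medians and counts are descriptions only.

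Each member was placed by its step from OM0h to OM24h and its step from OM24h to OM7d, which share the OM24h library, so that a high or low value in that library alone enters both steps. At 24 h, 954 members (13.6%) were at least 2-fold above the naive level and 430 (6.11%) at least 2-fold below it. At 7 d, 622 (8.84%) were at least 2-fold above the naive level and 129 (1.83%) below it. Of the 954 that were higher at 24 h, 325 (34.1%) were then at least 2-fold lower at 7 d and are called receded rises. A further 594 (62.3%) stayed within 2-fold of their 24 h level and are called persistent rises, and 35 (3.67%) went 2-fold or more higher again. Of the 430 that were lower at 24 h, 210 (48.8%) were 2-fold or more higher at 7 d, 220 (51.2%) stayed within 2-fold and 0 went 2-fold lower again. Without a 2-fold step at 24 h, 115 members were higher at 7 d (late rises) and 117 lower (late falls). The remaining 5424 members (77.0%) made no 2-fold step.

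**Figure D2:**
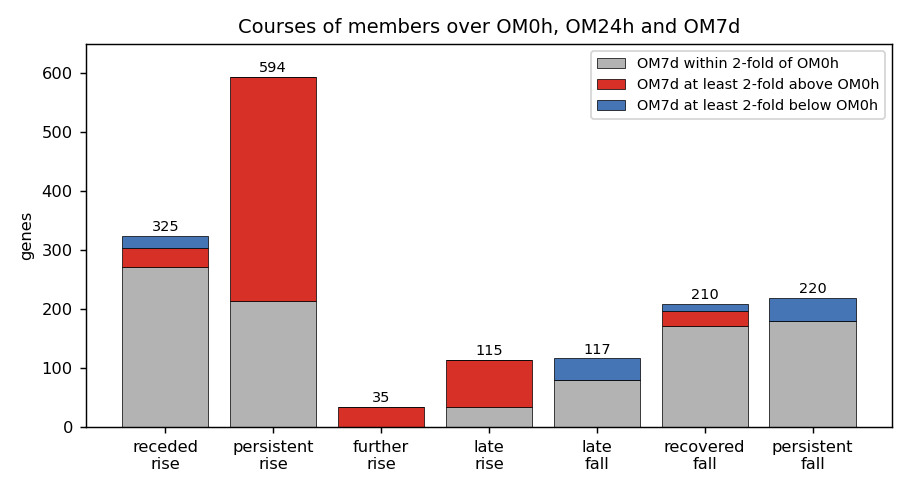
Number of members in each course over OM0h, OM24h and OM7d, with each bar divided by where OM7d lay against OM0h. Of the 325 receded rises, 272 were within 2-fold of OM0h at 7 d, and of the 594 persistent rises 379 were at least 2-fold above it.

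Most receded rises had returned to about the naive level. At 7 d, 272 of the 325 were within 2-fold of OM0h, 32 were still at least 2-fold above it and 21 were at least 2-fold below it. Of the 594 persistent rises, 379 were at least 2-fold above the naive level at 7 d, and the other 215 had drifted to within 2-fold of it. Of the 115 late rises, 81 were at least 2-fold above the naive level, and of the 117 late falls 36 were at least 2-fold below it. The receded rises numbered 213 after the rescaling to 1 sum, and all 213 were among the 325.

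Macrophage genes made up most of the largest falls. The largest single fall was in Arg1, which encodes the enzyme that splits arginine into ornithine and urea and is a textbook marker of alternatively activated macrophages. Arg1 was at 0.463, 213 and 5.62, a difference of -5.02 between 7 d and 24 h. It was nearly absent in the naive library, high at 24 h and low again at 7 d. In the mesentery Arg1 was at 3.34 at 24 h and 1.35 at 7 d. The next largest falls were in Pf4, a platelet and macrophage chemokine (167, 601 and 25.8), and in Ccl8, a ligand of CCR8 in the mouse (42.2, 681 and 33.1). Both were well above their naive level at 24 h and below it at 7 d. Fcrls, Cbr2, Vsig4, Folr2, Ms4a7, C1qa, C1qc, Ltc4s, Fcna, C1qb, Cd209f and Stab1 completed the 15 largest falls, with differences from -4.20 for Fcrls to -3.48 for Stab1.

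Genes of resident macrophages had the lowest median of the 51 gene lists. Of 21 members, 20 were at least 2-fold lower at 7 d and 0 higher, with a median difference of -3.48 against -0.06 over all members. Of the 21, 11 reached an FPKM of 10 in both libraries, and 10 of these 11 were lower. Of the 20, 14 were receded rises and 6 were late falls, that is, they had not been 2-fold above the naive level at 24 h. Folr2, a folate receptor of tissue macrophages, was at 81.6, 220.0 and 14.5. Cd163, the receptor for haemoglobin-haptoglobin complexes, was at 18.2, 21.04 and 3.13, and Lyve1, a hyaluronan receptor found on perivascular macrophages and lymphatic vessels, was at 53.5, 55.3 and 5.96. These last genes were little changed at 24 h and dropped below the naive level only afterwards. Timd4, a phosphatidylserine receptor of long-lived resident macrophages, was at 27.8, 13.5 and 5.30 with each library lower than the one before. At 7 d, 11 of the 21 genes were at least 2-fold below their naive level and 1 was above it. That gene was Gas6, the bridging ligand of the Mer and Axl receptors, which was at 26.3, 69.9 and 139 and was the sole member of the list to be higher at 7 d than at 24 h, by 0.98, short of 2-fold. After the rescaling to 1 sum, 19 of the 21 were lower and Gas6 passed 2-fold.

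The core macrophage genes moved less far and ended close to the naive level. Of 15 members, 11 were lower at 7 d and 0 higher, with a median difference of -1.44 and a median difference between OM7d and OM0h of -0.16. Csf1r, the receptor for the growth factor CSF-1, was at 132, 569.8 and 103. Cd68, a lysosomal glycoprotein, was at 199, 636 and 133, and Lyz2, lysozyme, was at 7054, 24779.6 and 6791. Each of these was within 2-fold of the naive level at 7 d after having been more than 2-fold above it at 24 h. Spi1, the transcription factor PU.1, was at 377, 664 and 345 and Irf8, a transcription factor of monocytes and dendritic cells, at 185, 194 and 156, and neither made a 2-fold step at either interval. Mpeg1, which encodes a pore-forming protein of phagocytes, was at 22.9, 76.7 and 64.95 and kept most of its 24 h level.

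The lists of phagocytic receptors and of lipid handling followed the same direction. All 7 Fc receptor members were lower at 7 d, also after the rescaling to 1 sum, with a median of -2.03. The activating receptor Fcgr4 was at 16.3, 118 and 34.3, and the shared signalling chain Fcer1g at 894, 2889 and 709. Of 13 C-type lectin members, 11 were lower and 0 higher, with a median of -1.71, and 9 were lower when rescaled. Clec4n, which encodes dectin-2, was at 7.72, 124 and 21.5. Clec4e, which encodes Mincle, was at 6.06, 27.6 and 17.6 and did not pass 2-fold between 24 h and 7 d. Of 21 lipid and scavenger genes, 15 were lower and 1 higher, with a median of -1.38, and 13 were lower when rescaled. Of the 16 that reached 10 in both libraries, 11 were lower. Apoe, the apolipoprotein of lipid-laden macrophages, was at 2379.9, 17332 and 1944, Trem2, a lipid-sensing receptor, at 7.498, 191 and 18.9, and Spp1, osteopontin, at 7.35, 219.6 and 41.9. Apoe was below its naive level at 7 d, while Trem2 and Spp1 were still above theirs. The gene that was higher was Fabp4, a fatty acid carrier of adipocytes, macrophages and endothelium, at 31.6, 10.2 and 58.3.

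Of 28 lysosomal genes, 13 were lower at 7 d and 1 higher, with a median of -0.94, and 11 were lower when rescaled. The proteases led: Lgmn, legumain, was at 60.5, 467 and 65.3, Ctsd, cathepsin D, at 261, 1264 and 234 and Ctsb, cathepsin B, at 229.8, 983 and 201. Each was close to its naive level at 7 d. Subunits of the proton pump that acidifies lysosomes differed less, with Atp6v1a at 22.1, 48.7 and 28.5 and Atp6v0c at 90.3, 132 and 73.5. Of 11 iron and heme genes, 6 were lower and 1 higher. Hmox1, heme oxygenase 1, which breaks heme down, was at 29.5, 137 and 15.4, and Slc11a1, an iron and manganese transporter of the phagosome, was at 43.6, 209 and 29.5. Both ended below their naive level. Rescaled to 1 sum, 4 iron and heme genes were lower.

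**Figure D3:**
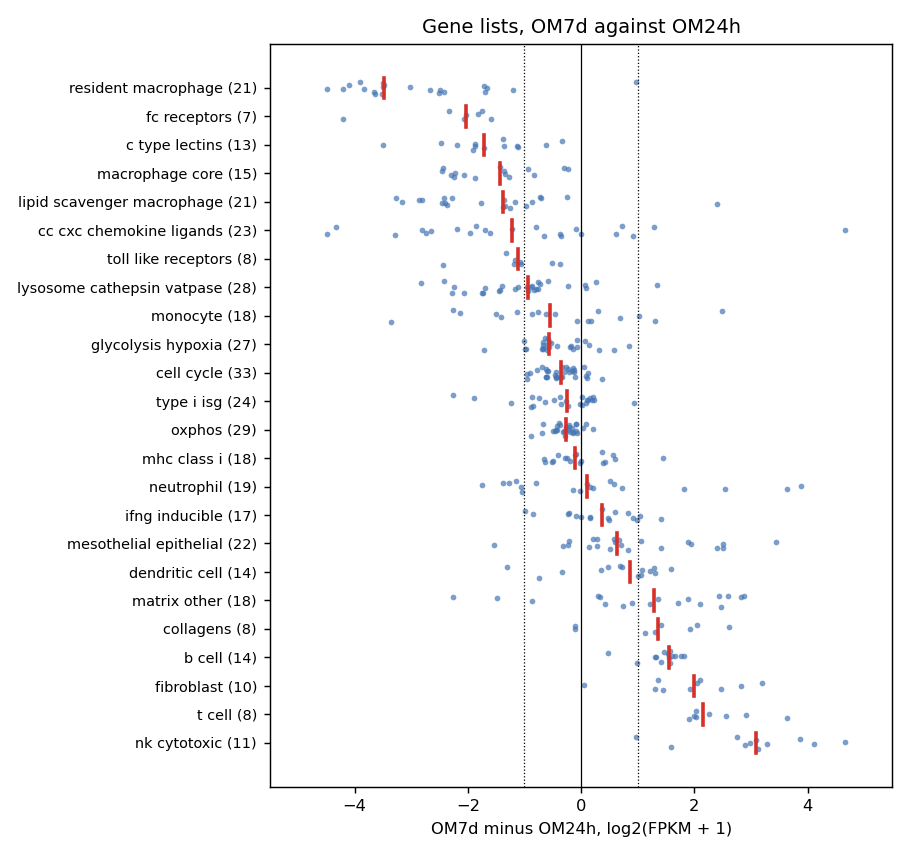
Difference between OM7d and OM24h, on the log2(FPKM + 1) scale, for the members of 24 of the 51 gene lists, ordered by median (red bar), with 1 blue point per gene, dotted lines at 2-fold and the number of members in brackets. Resident macrophage genes have the lowest median, -3.48, and NK and cytotoxic genes the highest shown, 3.09, with 9 of the 11 NK members selected through OM7d alone.

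Complement genes went in both directions. Of 18 members, 8 were lower, 5 higher and 5 within 2-fold, with a median of -0.74. The 3 chains of C1q, the recognition subunit of the classical pathway that macrophages make themselves, lie side by side on chromosome 4 in mm9 (C1qb at chr4:136436044-136442102, C1qc at chr4:136445719-136448980 and C1qa at chr4:136451832-136454718, all on the minus strand). C1qa was at 484, 3282 and 259, C1qb at 724, 4692 and 412 and C1qc at 543, 3442 and 276. All 3 were among the highest genes of the 24 h library and were below their naive level at 7 d. The anaphylatoxin receptors C3ar1 (11.4, 101 and 9.46) and C5ar1 (40.03, 257 and 34.1) and the alternative pathway stabiliser Cfp, properdin (477, 759 and 159), were lower at 7 d as well. The genes that were higher included others of the classical pathway. C3, the central component, was at 124, 117 and 401. The proteases C1ra (8.40, 8.90 and 36.99), C1s1 (10.6, 36.3 and 84.4) and C2 (15.3, 3.00 and 53.2) had their highest omental level at 7 d. Serping1, the C1 inhibitor that blocks C1r and C1s, was at 59.8, 11.8 and 227, a difference of 4.16. These 13 calls stood after the rescaling to 1 sum, with 8 lower and 5 higher. Of the 18 members, 2 passed the filter through OM7d alone and 2 through OM24h alone, which largely set their direction. Of the 14 that passed it in both libraries, 3 were higher and 6 lower. C3, C2 and Serping1 were lowest at 24 h and highest at 7 d, as were the fibroblast genes Dcn and Col3a1. C1ra and C1s1 were lowest in the naive library instead. The summed fibroblast list was at 1756, 896 and 2394. The cell type that carried these complement transcripts was not tested.

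**Figure D4:**
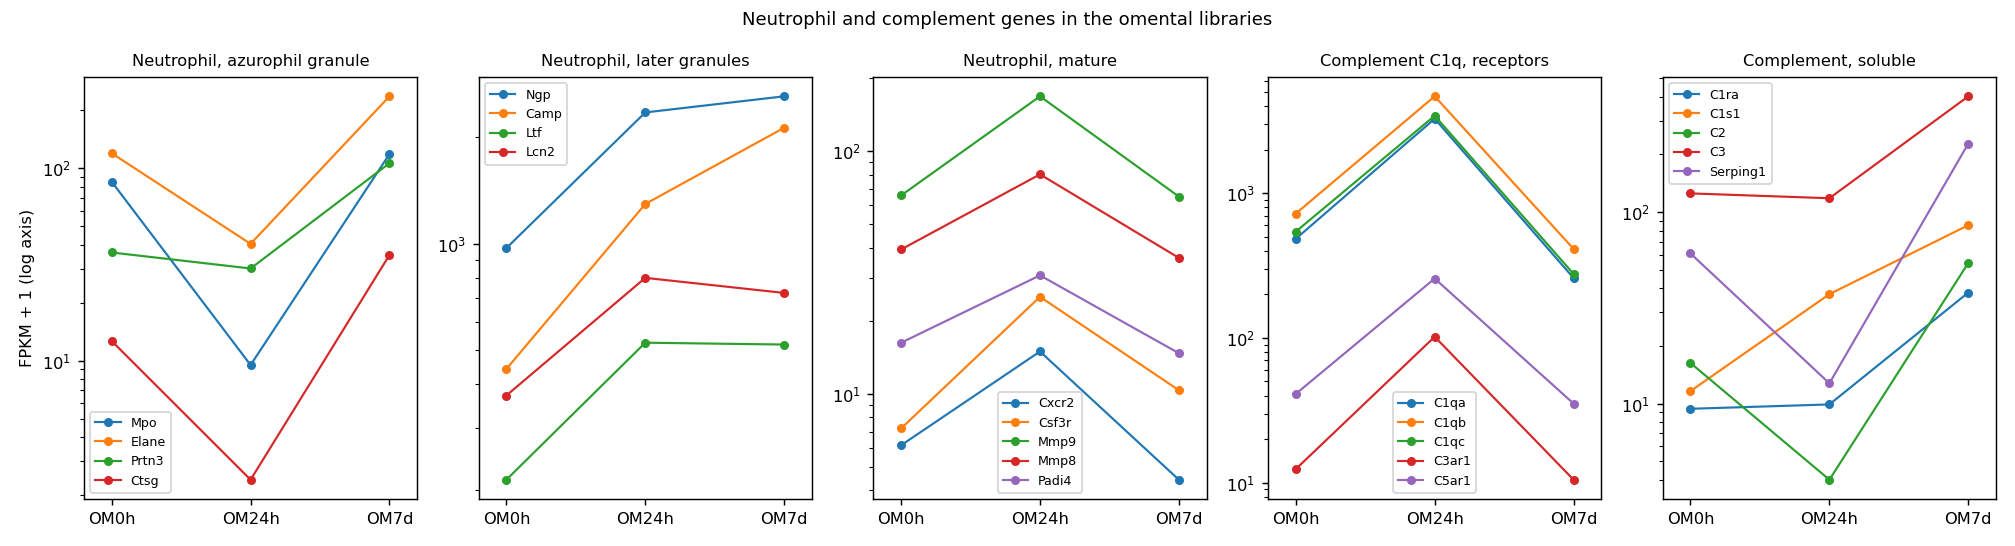
FPKM + 1 (log axis, a different range in each panel) of neutrophil and complement genes in OM0h, OM24h and OM7d, 1 point per library. The 4 azurophil granule genes are highest at 7 d, the mature neutrophil genes and C1q peak at 24 h, and the 5 soluble complement genes are highest at 7 d.

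Among chemokine ligands, most of those that were high at 24 h had receded. Of 23 members, 12 were lower at 7 d and 2 higher, with a median of -1.23. When rescaled, 11 were lower and 4 higher, and with an FPKM of at least 1 as the filter the median was -0.47. The ligands of CCR2, which draw monocytes, were lower: Ccl12 was at 7.55, 182 and 26.3, Ccl7 at 23.7, 125 and 26.4 and Ccl2 at 29.01, 130.4 and 55.2. Ccl12 and Ccl2 were still above their naive level. Ccl6 and Ccl9, ligands of CCR1, were at 777, 1901 and 489 and 147, 296 and 96.03 and ended below theirs. Ccl24, a ligand of CCR3, was at 16.6, 57.3 and 4.99. The neutrophil-drawing ligand Cxcl2 was at 51.95, 262 and 71.7. The interferon-inducible ligands of CXCR3 did not recede: Cxcl10 was at 12.1, 124 and 116 and Cxcl9 at 8.20, 32.3 and 32.2. The ligands of CCR4 had their highest values at 7 d. Ccl22 was at 19.9, 24.98 and 62.7 and Ccl17 at 20.9, 66.6 and 111, of which Ccl22 passed 2-fold between 24 h and 7 d. Xcl1, the chemokine of NK and CD8 T cells, was at 30.8, 0.532 and 37.7, nearly absent at 24 h and near its naive level at 7 d. Ccl1, a ligand of CCR8, was listed at 0 in OM0h and OM24h and at 10.6 in OM7d. Of the 23, 3 were members through OM24h alone and 2, Xcl1 among them, through OM7d alone, which largely set their direction. Of the 18 that were members through both libraries, 1 was higher and 9 lower.

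Chemokine receptors went in both directions. Of 12 members, 6 were lower and 4 higher. The lower ones included Cx3cr1 (15.6, 144 and 19.9), Cxcr2, Ccr2, Ccr1 and Ccrl2, which are known on myeloid cells and in part on lymphocytes too. Ccr2 was at 137, 303 and 112 and Ccr1, a receptor for Ccl6 and Ccl9, at 65.7, 128 and 48.2. The higher ones were Cxcr5 (122, 18.3 and 80.5), Ccr6 (16.2, 5.60 and 14.9) and Ccr7 (93.8, 49.2 and 116), which B cells, T cells or migrating dendritic cells carry, and Ccr8 (3.17, 0.777 and 10.8), a receptor of regulatory and type 2 T cells. Ccr8 was above its naive level at 7 d, as was its ligand Ccl1. Rescaled to 1 sum, 4 receptors were lower and 4 higher. Ccr6 and Ccr8 were members through OM7d alone and Cxcr2 through OM24h alone, which largely set their direction. Of the 9 receptors that passed the filter in both libraries, 2 were higher and 5 lower.

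Genes of alternative activation did not share 1 course. Of 16 members, 7 were lower and 2 higher, with a median of -0.57, and 6 were lower and 4 higher when rescaled. Retnla, a secreted protein that interleukin 4 induces, was at 3681, 2402 and 311, a late fall with a difference of -2.95. Mrc1, the mannose receptor, was at 20.8, 50.5 and 7.13. In contrast, Chil3, a chitinase-like protein, was at 157, 555 and 629 and kept its 24 h level, and Alox15, a lipoxygenase, was at 5.03, 22.7 and 36.1. The genes that were higher were Ccl22 and Socs2, at 6.81, 4.54 and 10.6. Of 15 genes of prostaglandin and leukotriene synthesis, 7 were lower and 1 higher. Ltc4s, leukotriene C4 synthase, was at 131, 303 and 23.5, and Ptgs1, cyclooxygenase 1, at 22.1, 92.1 and 25.3. Ptgs2, cyclooxygenase 2, was at 7.998, 16.7 and 13.3 and made no 2-fold step. Ptgds, prostaglandin D synthase, was listed at 0 in OM0h and was at 2.51 in OM24h and 15.3 in OM7d.

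Sensors and antigen presentation differed among themselves. Of 8 Toll-like receptor genes and partners, 6 were lower and 0 higher, but 4 of these calls were lost after the rescaling to 1 sum, which left 2 lower. Cd14, the lipopolysaccharide co-receptor, was at 141, 693 and 126 and Tlr2 at 31.3, 104 and 49.3. Of 9 genes of MHC class II, which present peptides to CD4 T cells, 5 were lower and 3 higher. H2-Ab1, H2-Aa and H2-Eb1, the chains of the class II molecules themselves, were at 10226, 15011 and 7017 for H2-Ab1, 6291, 9006 and 4356 for H2-Aa and 3371, 4853 and 2218 for H2-Eb1. Their differences were close to 2-fold, and after the rescaling 1 of the 5 remained lower. H2-Oa and H2-Ob, the chains of a modulator of peptide loading that is found mainly in B cells, and H2-DMb2 were higher, with H2-Ob at 96.1, 28.8 and 66.1. The 18 MHC class I genes had 1 higher and 0 lower, and a median of -0.10 that became 0.25 when rescaled.

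Most interferon-related genes were within 2-fold between 24 h and 7 d, as were 88.6% of all members. Of 24 genes induced by type I interferon, 3 (12.5%, against 6.28% of all members) were lower and 0 higher, with a median of -0.25 that became 0.08 when rescaled to 1 sum. Isg15, a ubiquitin-like modifier, was at 23.4, 74.1 and 57.04, and Ifit3, which blocks translation of viral RNA, at 6.86, 18.1 and 19.5, both still above the naive level at 7 d. The exceptions were Siglec1 (2.13, 17.6 and 2.85), Oas1g and Oas1a. Siglec1 was a member through OM24h alone, which largely set its direction. Of 17 genes induced by interferon gamma, 0 were lower and 2 higher, with a median of 0.37, and 8 were at least 2-fold above their naive level at 7 d. Gbp4, a guanylate-binding protein, was at 5.40, 4.09 and 12.6, Igtp, an immunity-related GTPase, at 31.8, 36.9 and 70.3 and Iigp1 at 2.61, 15.3 and 23.8. Irf1, the transcription factor downstream of interferon gamma, was at 87.2, 88.5 and 176, a difference of 0.99 that just missed 2-fold. After the rescaling to 1 sum, 5 of the 17 were higher. Ifng itself was no member, at 7.27, 0.0219 and 5.05.

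Cxcl10, Isg15 and others of the interferon-inducible genes were still above the naive level at 7 d. The promoters of Cxcl10 and Isg15 are not shown. Promoter stretches with a match to the interferon-stimulated response element are shown for Gbp2, Irgm1 and Igtp. These genes were picked from those of the interferon gamma list that held a match. Sequences are from RefSeq on GRCm38.p6, which is not the build the reads were aligned to, and capitals mark matches to the core of the element, GAAA followed after any 2 bases by another GAAA, or to its reverse complement. Irgm1 is read 5′ to 3′ on the minus strand and the others on the plus strand. The window is chr3:142620578-142620637 for Gbp2, chr11:48871421-48871480 for Irgm1 and chr11:58199496-58199555 for Igtp.
Gbp2: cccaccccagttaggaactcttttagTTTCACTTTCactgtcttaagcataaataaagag
Irgm1: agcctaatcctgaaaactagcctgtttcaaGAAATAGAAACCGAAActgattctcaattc
Igtp: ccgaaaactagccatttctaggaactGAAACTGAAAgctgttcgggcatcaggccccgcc
In Irgm1, a pair of overlapping matches shares its middle GAAA. A match on either strand stood in the 250 bases upstream of the start in 9 of the 13 interferon gamma genes with a promoter in the table and in 9 of the 17 type I interferon genes. It stood in 3.04% of all 27025 gene promoters, in 18 of 243 receded rises (7.41%) and in 15 of 442 persistent rises (3.39%). Of the 8 motifs searched, 2 are reported, and they were chosen after the matches had been seen. A match describes the letters of the window and is no measure of binding.

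Neutrophil genes are given by granule type and stage. Of 19 members, 4 were higher and 6 lower at 7 d, with a median of 0.10. The 4 higher ones were the enzymes of the azurophil granule, which are transcribed in promyelocytes and silent in mature neutrophils. Mpo, myeloperoxidase, was at 83.96, 8.49 and 117 and Elane, neutrophil elastase, at 118, 39.4 and 235. Prtn3, proteinase 3, was at 35.5, 29.1 and 105 and Ctsg, cathepsin G, at 11.6, 1.41 and 34.4. All 4 were lowest at 24 h and highest at 7 d. Genes of the later granules had gone up at 24 h and kept that level. Ngp was at 970.2, 2352 and 2613, Camp, cathelicidin, at 440.2, 1294 and 2128 and Ltf, lactoferrin, at 213, 523 and 517. The alarmins S100a8 (3020.2, 7826 and 8381) and S100a9 (2397, 4836 and 5621) were among the most abundant transcripts at both times. The 6 lower genes belong to the mature or activated cell. Cxcr2, the receptor that brings neutrophils out of the marrow, was at 5.14, 13.96 and 3.43, Csf3r, the receptor for G-CSF, at 6.21, 24.1 and 9.36, and Mmp9, gelatinase B, at 64.8, 168 and 64.1. Mmp8, Padi4 and Trem1 had differences of -1.14, -1.07 and -1.05. Rescaled to 1 sum, 2 of the 6 remained lower. Of the 19 members, 2 passed the filter through OM7d alone and 3 through OM24h alone, which largely set their direction. The former were Mpo and Ctsg, and the latter included Cxcr2 and Csf3r. Of the 14 that passed it in both libraries, 2 were higher and 3 lower.

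Promoter windows are shown for Mpo, Elane and Prtn3, which were higher at 7 d than at 24 h and held the motif below. Ctsg was higher too but had no promoter in the table. Each window, on the plus strand of GRCm38.p6 from RefSeq, holds GAGGAAGT in capitals, a sequence of the kind that ETS family factors such as PU.1 bind. The windows are chr11:87793534-87793593 for Mpo, chr10:79886201-79886260 for Elane and chr10:79879546-79879605 for Prtn3.
Mpo: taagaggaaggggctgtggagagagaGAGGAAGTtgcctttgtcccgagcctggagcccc
Elane: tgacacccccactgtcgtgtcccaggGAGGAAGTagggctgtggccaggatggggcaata
Prtn3: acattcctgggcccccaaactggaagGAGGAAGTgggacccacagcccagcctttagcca
Elane and Prtn3 are neighbours on chromosome 10. The motif began 224 bases before the start in Mpo, 85 in Elane and 95 in Prtn3, and 5 of the 18 neutrophil list genes with a promoter held it on either strand, against 2.44% of all gene promoters. It was also found in 14 of the 243 receded rises (5.76%) and in 6 of the 139 recovered falls (4.32%), so it did not mark 1 course.

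Genes of proliferation, energy metabolism and the immediate early response had 2-fold calls at or below the share of all members, or close to it. Of 33 cell cycle genes, 0 were higher and 0 lower at 7 d, with a median of -0.35, although 14 had been 2-fold above the naive level at 24 h. Ube2c, which drives exit from mitosis, was at 42.1, 104 and 53.2 and Cdk1, the mitotic kinase, at 8.21, 18.2 and 11.6. Of 27 glycolysis and hypoxia genes, 2 (7.41%) were lower, 1 when rescaled, among them the lactate exporter Slc16a3 at 17.3, 72.4 and 21.4, with a median of -0.57. Egln3, a target of the hypoxia-inducible factors, was at 1.10, 10.6 and 6.47. The 29 genes of oxidative phosphorylation had 0 higher and 0 lower and a median of -0.26 that became 0.09 when rescaled to 1 sum. Of 21 immediate early genes, 1 (4.76%) was higher, Myc, at 262, 64.1 and 147, and 3 were higher when rescaled. Fos was at 729.8, 1715 and 1129 and Egr1 at 239, 445 and 426. The 15 genes of NF-kappaB signalling and its feedback had 0 higher and 0 lower, with a median of -0.03 that became 0.32 on that scale. Nfkbia, the inhibitor that NF-kappaB induces, was at 329, 481 and 331 and Tnf at 11.1, 27.1 and 15.04.

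Most mesothelial genes were above the naive level at 7 d. Of 22 members of the mesothelial and epithelial list, 13 were 2-fold above the naive level at 24 h and 18 at 7 d. Against 24 h, 8 were higher and 1 lower at 7 d, with a median of 0.64. Of the 18 members that reached 10 in both libraries, 4 were higher and 1 lower. The other 4 were members through OM7d alone, which largely set their direction. Upk3b, a uroplakin of mesothelium, was at 23.7, 215 and 259, Msln, mesothelin, at 5.27, 53.8 and 59.2 and the keratin gene Krt19 at 25.4, 406 and 349. These were well above the naive level at both times. Others were high only late. Rspo1, a Wnt agonist, was at 7.23, 9.80 and 60.4, Nkain4 at 18.9, 14.8 and 89.3 and Krt7 at 2.05, 2.58 and 17.9, while Aldh1a1, a retinaldehyde dehydrogenase, went up at both steps, from 1.83 to 44.6 and 173. The gene that was lower was Slpi, a protease inhibitor, at 51.6, 173 and 58.8. After the rescaling to 1 sum, 11 were higher and 1 lower.

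Genes of the gonadal and ovarian surface list were low or listed at 0 in the naive library and present at both later times. Amhr2, the receptor for anti-Müllerian hormone, was at 0.397, 223 and 315 (chr15:102275798-102285061 in mm9, plus strand). Nr5a1, steroidogenic factor 1, was at 0.0135, 8.85 and 14.1 and Wt1 at 2.16, 25.2 and 38.1. Gata4, a transcription factor of gonad and mesothelium, was listed at 0 in OM0h and was at 25.9 in OM24h and 33.1 in OM7d. Inha, the alpha chain of inhibin, was listed at 0 in OM0h and was at 5.26 in OM24h and 24.1 in OM7d, the sole member of the list to pass 2-fold between the later libraries. The 6 members had a median difference of 0.54. Of the 6, 3 reached 10 in both libraries, and 0 of these passed 2-fold. The other 3, Inha among them, were members through OM7d alone, which largely set their direction. The summed level of the 10 listed genes was 3.46 in OM0h, 297 in OM24h and 438 in OM7d. ID8 was derived from ovarian surface epithelium, and whether these transcripts came from ID8 cells, from mesothelium or from macrophages was not tested.

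**Figure D5:**
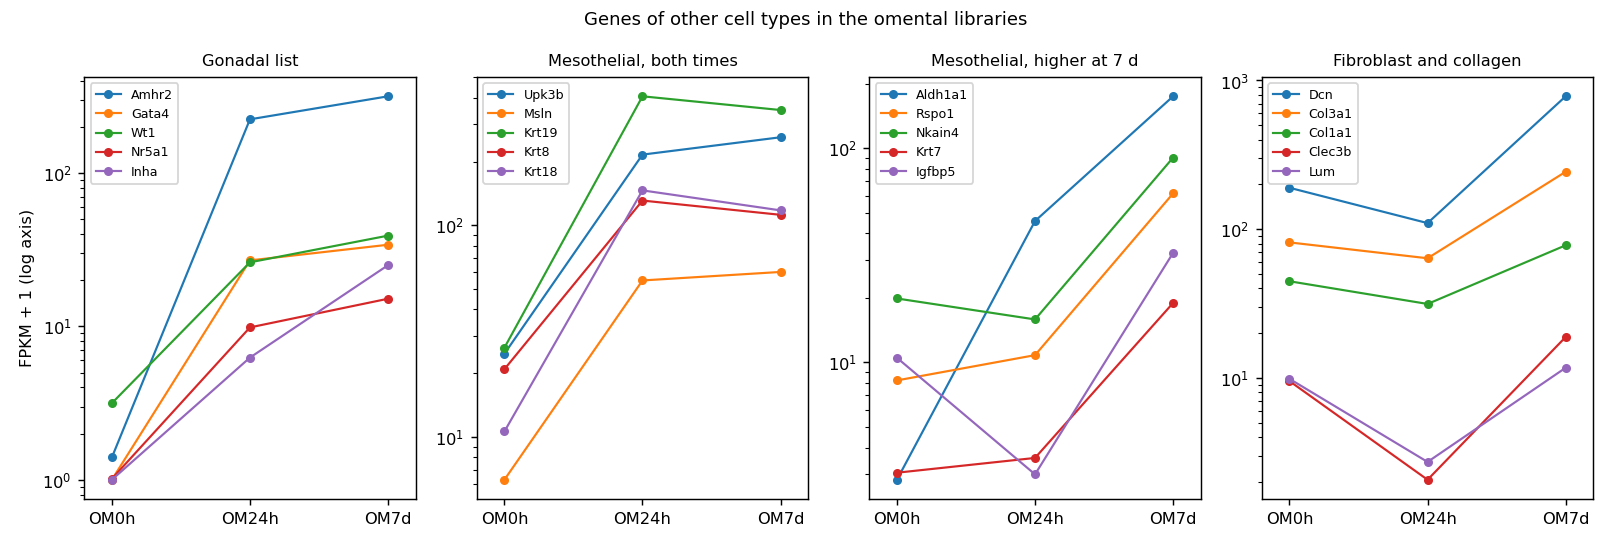
FPKM + 1 (log axis, a different range in each panel) of gonadal, mesothelial, fibroblast and collagen genes in OM0h, OM24h and OM7d, 1 point per library. Amhr2, Krt8, Krt18 and Krt19 are within 2-fold of their 7 d level already at 24 h, whereas Rspo1, Nkain4, Dcn and Col3a1 are higher at 7 d alone.

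Genes of fibroblasts and collagen were mostly higher at 7 d than at 24 h. Of 10 fibroblast members, 9 were higher at 7 d and 0 lower, with a median of 1.99. Of the 7 that reached 10 in both libraries, 6 were higher. At 24 h, 4 of the 10 had been at least 2-fold below the naive level, so these were no late rises. At 7 d, 4 of the 10 were at least 2-fold above the naive level. Of 8 collagen members, 6 were higher and 0 lower, and 5 of the 7 that reached 10 in both. Of 18 other matrix genes, 10 were higher and 2 lower, but 9 of the 18 were members through OM7d alone, and of the 9 that reached 10 in both 2 were higher and 2 lower. When rescaled, 12 of the 18 were higher. Dcn, decorin, a proteoglycan that coats collagen fibrils, was at 189, 109 and 782. Col3a1, the chain of collagen III, was at 80.5, 62.8 and 242 and Col1a1 at 43.7, 30.4 and 76.97. Eln, elastin, was at 10.97, 9.59 and 63.2. Each was below its naive level or close to it at 24 h and at least 1.5-fold above it at 7 d. Col4a1 and Col4a2, chains of basement membrane collagen, differed from these, being at 3.12, 17.2 and 15.9 and 1.73, 11.05 and 10.2, high at 24 h and within 2-fold of that level at 7 d. The 2 matrix genes that were lower were Fn1, fibronectin (94.2, 279 and 57.6), and Ecm1 (89.2, 386 and 137).

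Outside the lists, the highest late rises included Igfbp6 (77.7, 128 and 514) and Igfbp7 (87.7, 131 and 369), which encode binding proteins of insulin-like growth factors, and Enpp2, autotaxin, which makes lysophosphatidic acid (16.3, 8.06 and 142). Of 12 genes of the interleukin 1 family and inflammasome, 1 was higher and 2 lower, with a median of -0.44, and of 11 genes of the interleukin 6, 10 and 12 axes 2 were higher and 1 lower, with a median of -0.20 that became 0.15 when rescaled. The higher ones included Il33, an alarmin of stromal cells, at 1.72, 2.42 and 12.6, and Il12b, the p40 chain of interleukins 12 and 23, at 2.92, 1.54 and 12.2. Both were members through OM7d alone, which largely set their direction. In each of the 2 lists 9 genes reached 10 in both libraries. Of these, 0 were higher and 1 lower in the interleukin 1 list, and 1 was higher and 0 lower in the other. Of the 35 genes that went up at both steps, the highest at 7 d were Clu, the chaperone clusterin (21.6, 128 and 268), Gstm2, a glutathione transferase (7.08, 119 and 254), and Hspb1, a small heat shock protein (19.9, 68.4 and 196). Igfbp2 was at 3.85, 20.2 and 137 and Gata6, the transcription factor of large peritoneal macrophages that mesothelial cells express too, at 2.06, 15.9 and 36.7. The large peritoneal macrophage list did not share that course. Of its 12 members, 2 were higher and 5 lower at 7 d, with a median of -0.62. Of the 10 that reached an FPKM of 10 in both libraries, 2 were higher and 3 lower.

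Lymphoid genes were low at 24 h and back near the naive level at 7 d. Of 14 B cell members, 12 were higher at 7 d and 0 lower, with a median of 1.55, and all 14 had been at least 2-fold below the naive level at 24 h. Cd79a, a chain of the B cell receptor complex, was at 1551, 392 and 983 and Ms4a1, which encodes CD20, at 883, 158 and 501. Their median against the naive library at 7 d was -0.73, so the return was not complete. Of the 21 T cell genes, 8 were members, and 7 of these reached 10 in OM7d alone, so that their higher value at 7 d is largely set by the filter. The summed level of all 21, at 587, 101 and 468, does not depend on it. Cd3e, a chain of the T cell receptor complex, was at 28.00, 3.98 and 28.4 and Lck, its kinase, at 46.6, 4.39 and 39.7. Ctla4, an inhibitory receptor of activated and regulatory T cells, was at 25.7, 2.07 and 37.2, and Pdcd1, which encodes PD-1, at 3.07, 3.03 and 11.3. Ctla4 and Pdcd1 both had their highest level at 7 d. Of 5 plasma cell members, 3 were higher, with Igj, the joining chain, at 413, 104 and 365.

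Of the 21 NK and cytotoxic genes, 11 were members and 9 of these reached 10 in OM7d alone, so that direction was again largely set by the filter. The median of 3.09 over the members was 1.91 with a pseudocount of 5, and the summed level of all 21 genes was 705, 51.1 and 456. Gzma, granzyme A, was at 142, 2.37 and 57.4 and Prf1, perforin, at 25.6, 0.807 and 12.5. Ncr1, the NK receptor NKp46, was at 26.2, 0.612 and 11.7. Gzmb, granzyme B, was at 17.4, 0.0200 and 13.8. All 4 were low at 24 h and ended below their naive level at 7 d. Klrk1, which encodes NKG2D, was at 15.6, 7.77 and 16.1 and missed 2-fold.

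Of the 14 mast cell genes, 4 were members, 3 of them through OM7d alone, and the list median was 2.78 over these 4 but 1.34 with an FPKM of at least 1 as the filter. Cma1, chymase, was at 24.6, 0.0838 and 21.6 and Tpsb2, a tryptase, at 17.9, 0.169 and 20.8. Of the 14 genes of the list, 7 were listed at 0 in OM24h, Cpa3 and Ms4a2 among them, against 1, Mcpt1, in OM7d. The hemoglobin genes gave the largest single differences, with Hbb-b1 at 14.8, 0.0437 and 66.4 and Hba-a1 at 0.0498, 0.0811 and 40.7. Hba-a2 was at 18.6, 0.248 and 25.8. Hba-a1 and Hba-a2 are near-identical copies, so the split of reads between them is uncertain, and the 12 measured erythroid and platelet genes summed to 203, 604 and 162 with Pf4 included. Of 14 dendritic cell genes, 7 were higher and 1 lower, with a median of 0.87, and 9 were higher and 0 lower when rescaled. Zbtb46, a transcription factor of conventional dendritic cells, was at 13.95, 7.59 and 16.3, and Batf3, which the cross-presenting subset needs, was the lower one as deposited, at 67.2, 86.1 and 34.2.

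Of 7 pancreatic acinar genes among the members, 6 were lower at 7 d and 0 higher, and 4 when rescaled. Of the 7, 6 were members through OM24h alone, while the 17 measured genes of the list summed to 202, 185 and 43.4. Clps, colipase, was at 27.9, 27.01 and 1.85 and Cela2a, an elastase, at 40.8, 33.2 and 4.40. Digestive enzyme transcripts were thus at similar levels in the naive and 24 h libraries and low at 7 d. The study describes pancreas dissected together with omentum in tissue sections, and the source of these transcripts was not tested.

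The mesenteric libraries of the same times showed smaller steps. Of 6873 mesenteric genes selected by the same rule, 160 (2.33%) were at least 2-fold higher and 248 (3.61%) lower in MY7d than in MY24h. Of the 325 omental receded rises, 298 were lower in MY7d than in MY24h by any amount, against 2443 of the 5424 members without a 2-fold step in the omentum. The resident macrophage list had a mesenteric median of -1.15 over 13 genes, with 10 lower and 0 higher, and the core macrophage list a median of -0.77 over 14 genes, with 2 lower. B cell genes were higher in the mesentery at 7 d too, 14 of 16, with a median of 1.49. NK and cytotoxic genes were not: 3 of 20 were lower and 0 higher, with a median of -0.45. Cell cycle genes had a mesenteric median of 1.04 with 17 of 30 higher, whereas none of the 33 in the omentum passed 2-fold. Neutrophil genes had a mesenteric median of -2.73 over 9 genes, with 5 lower. None of these differences between tissues was tested, since each rests on single libraries.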

How the data were processed

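RNA of macrophages sorted from mouse omentum and mesenteric adipose tissue was sequenced, with 1 library per condition. Read quality was inspected by the authors in FastQC 0.11.4. Alignment was to NCBI37/mm9 in STAR 2.4.2a, guided by UCSC gene models, and the deposited table holds FPKM per gene symbol from Cufflinks. FPKM are not counts, so no count model was run.

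Members had an FPKM of at least 10 in OM24h or OM7d. Differences were taken on the log2(FPKM + 1) scale and called at 2-fold with Python 3.11.15, numpy 2.4.6 and pandas 2.3.3, and plotted with matplotlib 3.10.9. The code for the call was run on simulated data with planted changes beyond the threshold, which it finds by construction. That run gives no measure of how accurate the calls in these data are. The members, the 51 gene lists and the classes were chosen with earlier results of these data known. Genes named were the 15 largest rises and falls, the 10 highest of each course and list members. Ptprc and Cd74 were named after their values were seen. For relative depth, ratios of FPKM values under 0.1 were tallied and the commonest was taken. Gene positions are from NCBIM37 with GENCODE M1. Promoters are from RefSeq on GRCm38.p6, with 5404 of the 7040 members matched. Alternatives were other pseudocounts, filters, thresholds and scalings. Some genes are not reported here.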

Additional observations from a re-analysis of the deposited data

Results flagged for a closer look

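In both tissues, 6165 genes reached an FPKM of 10 at 24 h or 7 d. Of these, 12 passed 2-fold between 24 h and 7 d in opposite directions in omentum and mesentery. They were picked out because the 2 tissues differed, and the difference was not tested, since each value rests on single libraries. Values below are differences on the log2(FPKM + 1) scale, 7 d against 24 h.

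Of the 12, 11 were higher in the omentum and lower in the mesentery. Hbb-b1, Mmp23, Ppp1r14a, Tpm2, Adora2a, Gas5, 1600020E01Rik and Gm11974 were below 10 in OM24h, which largely set their direction in the omentum. Fabp4, Tpm2, Gas5 and 1600020E01Rik were below 10 in MY7d, which largely set their direction in the mesentery. Over all members, 5.11% were higher and 6.28% lower in the omentum, against 2.33% and 3.61% of mesenteric genes. Hbb-b1, a beta globin, differed by 6.01 in the omentum and -1.02 in the mesentery. Fabp4, a fatty acid carrier, differed by 2.405 and -1.68. Mmp23, a metalloproteinase, differed by 2.04 and -1.24. Ppp1r14a, an inhibitor of myosin phosphatase, differed by 1.94 and -1.22, and Tpm2, a tropomyosin, by 1.37 and -1.62. Clu, clusterin, differed by 1.06 and -1.02. Adora2a, an adenosine receptor, differed by 1.29 and -1.12. Gadd45g, a stress response gene, differed by 1.23 and -1.11. The RNA gene Gas5 differed by 1.11 and -1.09, 1600020E01Rik by 1.48 and -1.30, and Gm11974 by 1.33 and -1.81. Sdf2l1, a protein of the endoplasmic reticulum, went the other way, with -1.26 in the omentum and 1.01 in the mesentery.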

How the results depend on the processing

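No paired analysis was possible because every group holds a single library. Counts are compared within 1.5 times and log2 values within 0.58, its log2. Under the settings fixed at the start, 10 of 16 counts of higher or lower genes, 38 of 64 course counts and 282 of 305 list medians stayed within these limits. List medians changed sign for 3 of 51 lists with an FPKM of at least 1, for 5 of 50 with at least 30 and for 7 of 51 when rescaled to a sum of 1000000, and for 0 with the other pseudocounts or the median ratio. Among them, chemokine receptors went to 0.49 at the lower filter and endothelial genes to -1.25 at the higher. With a pseudocount of 5, further rises numbered 13 and recovered falls 134. With an FPKM of at least 1, 826 genes were higher; persistent rises numbered 1086, further rises 54, late rises 398, recovered falls 374, persistent falls 399 and genes with no 2-fold step 9383, and 7 lists had a median of at most -1. With an FPKM of at least 30, 159 genes were higher; persistent rises numbered 278, further rises 18, late rises 47, recovered falls 94, persistent falls 97, late falls 72 and genes with no step 2736. Rescaled to a sum of 1000000, 654 genes were higher and 274 lower; receded rises numbered 213, further rises 85, late rises 212, recovered falls 357 and late falls 61, and 6 lists had a median of at most -1. At a 3-fold threshold, 167 were higher and 197 lower; receded rises numbered 121, persistent rises 359, further rises 7, recovered falls 83, persistent falls 97 and late falls 76. Filters and thresholds change the number of genes counted by construction.

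A rescaling to the median of the core macrophage list, chosen after the data were seen, gave 5626 higher and 60 lower. Under it 26 of 51 list medians changed sign, among them 6 that had been below -1, which came to 0.21 for chemokine ligands, 0.061 for lipid and scavenger genes, 0.30 for iron and heme, 0.31 for Toll-like receptors, 0.39 for MHC class II and 0.38 for vascular growth factors. The resident macrophage median stayed negative, at -2.04. Pseudocounts of 0.1 and 5 moved the difference of Hbb-b1 from 6.01 to 8.85 and 3.82. The unknown read counts and single libraries limit every value, and the direction of small differences most.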
